A study of Mus musculus with 6 samples.

Results

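The 40 genes described here encode the core DNA replication machinery: the origin recognition complex, the licensing factors, the MCM helicase and its activators, the single-strand binding proteins, the polymerases, the sliding clamp and its loader, the Okazaki fragment enzymes and chromatin assembly factor 1. They were taken by name, by mapping the Ensembl IDs of the expression tables to mouse symbols. All 40 were found among the 24376 gene IDs. The libraries came from fetal liver blood progenitors of C57BL/6 mouse embryos at E14.5. These cells had been infected with a retrovirus directly after isolation and kept for 3 days in StemPro-34 medium, after which 200000 cells negative for CD71 and Ter119 went into each library. In 3 libraries the retrovirus carried a short hairpin RNA against Samd14 (shSamd14), and in 3 libraries it carried a control hairpin. Both groups therefore share the described steps of isolation, infection and culture. Whether they were isolated, infected and cultured in the same round is not labelled. What the control hairpin targets, and the hairpin sequences, is information not given in the sources used here. Whether replicates stem from different embryos or cultures is not labelled. The p-values hence cover only the spread between these samples, and that spread may be technical.

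Replication begins when the origin recognition complex, with CDC6 and CDT1, loads the MCM helicase onto DNA as an inactive double ring, a step called licensing that geminin blocks outside G1. CDC45 and the GINS complex then turn the loaded ring into the active helicase. RPA coats the opened strands, polymerase alpha with primase lays down primers, and polymerases epsilon and delta extend them on the PCNA clamp. FEN1 and DNA ligase 1 finish the lagging strand, and CAF-1 places new histones behind the fork. Many of these genes are known targets of E2F transcription factors, which drive the entry into S phase, and fetal liver erythroid progenitors are known for rapid cycling.

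E2F words were counted in the promoter letters. Searched were 4 words of 8 letters, TTTCCCGC, TTTCGCGC, TTTGCCGC and TTTGGCGC, on both strands and with overlapping matches allowed. The windows were the RefSeq promoters of GRCm38.p6, each running from 250 bases before to 50 bases after a gene's start. Of the 40 replication genes, 32 had a promoter in that table, and 13 of these 32 held at least 1 word (40.6%). Counted by promoter, 13 of 39 held a word (33.3%), against 744 of all 32851 promoters (2.26%) and 3.88% of the 12445 promoters of genes tested for expression. Of 40 further replication factors 31 had a promoter in the table, and 33.3% of their 36 promoters held a word. Of 18 E2F regulators and S-phase cyclins 13 had one, and 38.9% of their 18 promoters held a word. Both shares are close to that of the replication genes. The median GC content was 61.3% in the promoters of the replication genes and 60.3% in those of tested genes. The 13 genes were Orc1, Orc3, Cdc6, Cdt1, Mcm3, Mcm5, Mcm6, Mcm7, Gins3, Pola1, Pold1, Rfc3 and Lig1. The matches below stand for the origin recognition, licensing, MCM, GINS and clamp loader genes. They are written 5′ to 3′ in the direction of transcription, with the word in capitals, which reads as its reverse complement in Orc1, Cdc6 and Gins3.
Orc1: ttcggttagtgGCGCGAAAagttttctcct
Cdc6: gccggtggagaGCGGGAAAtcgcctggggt
Cdt1: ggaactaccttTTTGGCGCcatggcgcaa
Mcm5: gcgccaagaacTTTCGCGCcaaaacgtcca
Mcm6: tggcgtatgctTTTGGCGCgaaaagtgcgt
Gins3: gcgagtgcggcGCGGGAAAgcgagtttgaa
Rfc3: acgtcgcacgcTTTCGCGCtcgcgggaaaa
The Orc1 stretch lies at chr4:108579416-108579445 on the plus strand, the Cdc6 stretch at chr11:98908002-98908031 on the plus strand and the Cdt1 stretch at chr8:122568036-122568064 on the plus strand. Those of Mcm5 and Gins3 lie at chr8:75109345-75109374 and chr8:95633507-95633536, both on the plus strand. Those of Mcm6 and Rfc3 lie at chr1:128359797-128359826 and chr5:151651200-151651229, both on the minus strand. In Mcm5 and in Mcm6 the capitals overlap a second match on the other strand. The stretch of Rfc3 holds a second match as well, the reverse complement of TTTCCCGC, left in lower case after the capitals. A match is a description of the letters, not a binding site.

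The libraries held 25344092, 23862151 and 26462797 assigned reads in the shSamd14 group and 20584169, 23294223 and 24069711 in the control group. At this depth 3 counts correspond to 0.111 to 0.145 counts per 1000000 (CPM), and every replication gene had between 410.1 and 15060 counts in every library, so none was near the floor. Samd14 itself, the hairpin's target, stood at 41.9, 38.8 and 39.4 CPM in the shSamd14 libraries and at 82.0, 82.1 and 83.8 CPM in the control libraries, a fold of 0.484 (log2 fold change -1.05, SE 0.06, edgeR's quasi-likelihood test, Benjamini-Hochberg adjusted p = 4.69e-07). The progenitor markers Kit and Myb were expressed in all 6 libraries, at 138 to 148 and 168 to 195 TPM in shSamd14 libraries and at 154 to 215 and 164 to 181 TPM in control libraries. The gene of CD71, Tfrc, was not absent from these CD71-negative cells, at 273.5, 302.9 and 282.5 TPM in shSamd14 libraries and 352.1, 325.1 and 297.6 TPM in control libraries.

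The replication genes were highly expressed in both groups. In transcripts per 1000000 (TPM), a scale per length that allows genes to be compared, the median level over the 40 genes was 88.5, against 17.4 for all genes tested. Pcna, the sliding clamp, was the most abundant, at 658, 681 and 633 TPM in shSamd14 libraries and 670, 689 and 653 TPM in control libraries. Gins3, a GINS subunit, was the least abundant, at 13.5, 15.5 and 13.9 TPM in shSamd14 libraries and 14.2, 14.0 and 12.3 TPM in control libraries. The mean TPM of these genes over the 6 libraries lay 47.7-fold apart. Pcna was above 98.5% of all tested genes and Gins3 above 44.7%.

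Levels also differed within complexes whose subunits assemble together. The 6 MCM subunits, which form one ring, lay close to each other, with mean TPM over the 6 libraries of 310 for Mcm6, 296 for Mcm7, 244 for Mcm3, 220 for Mcm5, 182 for Mcm2 and 175 for Mcm4. The 4 GINS subunits were spread more widely, with 66.2 for Gins4, 49.2 for Gins1, 28.7 for Gins2 and 13.9 for Gins3. Among the origin recognition subunits Orc1, the one whose supply is known to change over the cell cycle, was the lowest at 23.3 TPM, Orc4 had 47.9 TPM, and Orc5, Orc3, Orc6 and Orc2 lay together between 94.6 and 103 TPM. Geminin had a mean of 160 TPM, above Cdt1 with 72.4 TPM and Cdc6 with 64.3 TPM. Pold1 and Pole, the catalytic subunits of the polymerases delta and epsilon, had 47.0 and 32.7 TPM. Libraries of a group lay close together: the median coefficient of variation of a replication gene's TPM was 3.21% over the shSamd14 libraries and 3.73% over the control libraries, with maxima of 9.6% and 9.53%.

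**Figure D1:**
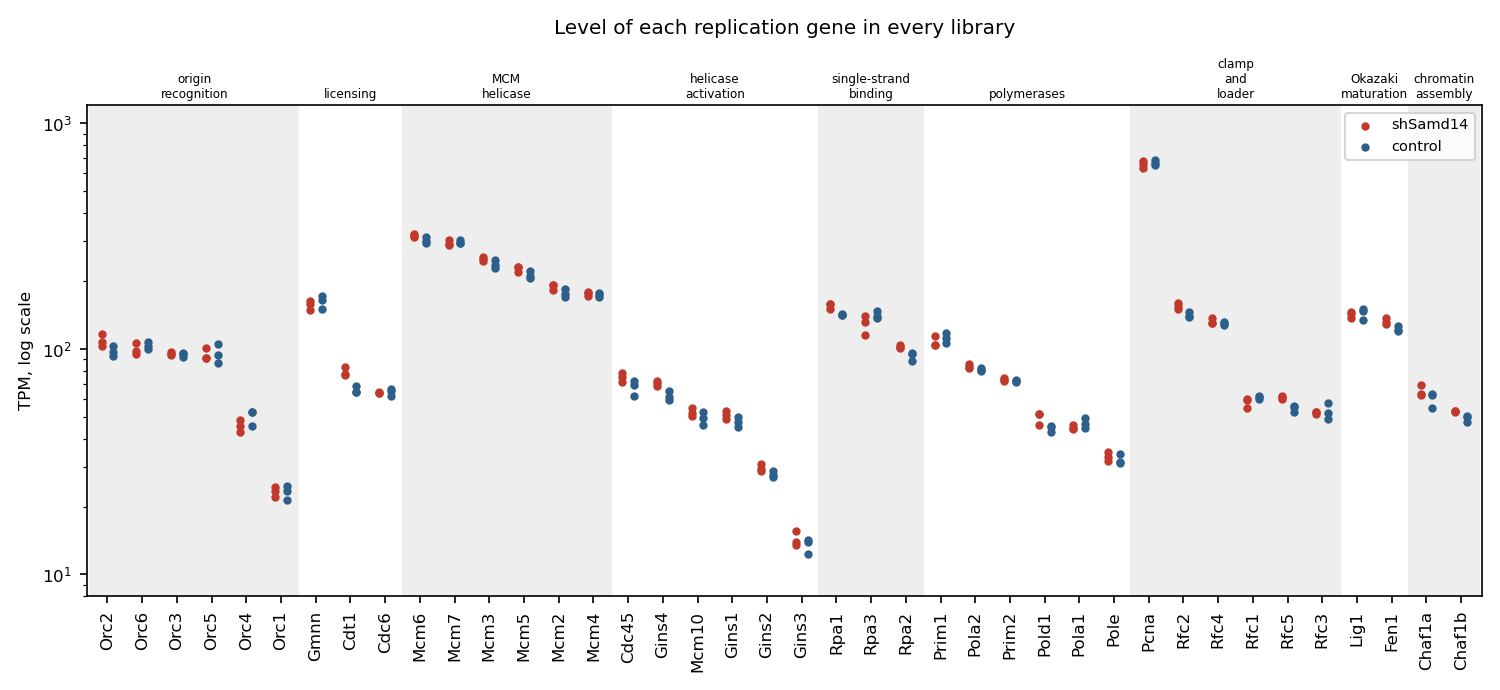
TPM (log axis) of each of the 40 replication genes, ordered by role and level, with 1 point per library for shSamd14 (red) and control (blue), 3 libraries each. Levels run from Gins3 at 13.9 TPM to Pcna at 664 TPM (means of the 6 libraries), and for most genes the points of both groups lie side by side.

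Set against control, no replication gene passed the test in the shSamd14 libraries. With edgeR's quasi-likelihood test and Benjamini-Hochberg adjustment over all 12670 tested genes, 0 of the 40 had an adjusted p under 0.05, while 327 of all tested genes did (2.58%, with 167 or 1.32% higher and 160 or 1.26% lower). At an unadjusted p under 0.05 there were 4 of the 40 (10%), against 15% of all tested genes. These were Cdt1, Gins4 and Rfc5, which were higher, and Orc4, which was lower. DESeq2 called 1 of the 40, Cdt1, with an adjusted p of 0.0434, and limma-voom called 0. Over all genes DESeq2 called 418 of 11050 (3.78%) and limma-voom 273 of 12670 (2.15%). Limma on log2(TPM + 1) called 0 of the 40 and 168 of 11394 genes (1.47%), and at an unadjusted p under 0.05 it had 8 of the 40 (20%), against 13.2% of all genes. In bulk samples such as these, fewer cells of a type and less RNA per cell cannot be told apart.

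The intervals were narrow enough to bound each gene's difference. All 40 replication genes had a 95% interval that lay within 1.5-fold in either direction, against 77.8% of all tested genes. The lowest bound was a fold of 0.786 for Orc4 and the highest a fold of 1.32 for Cdt1. The median standard error of a log2 fold change was 0.064 over the 40 genes and 0.086 over all tested genes.

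**Figure D2:**
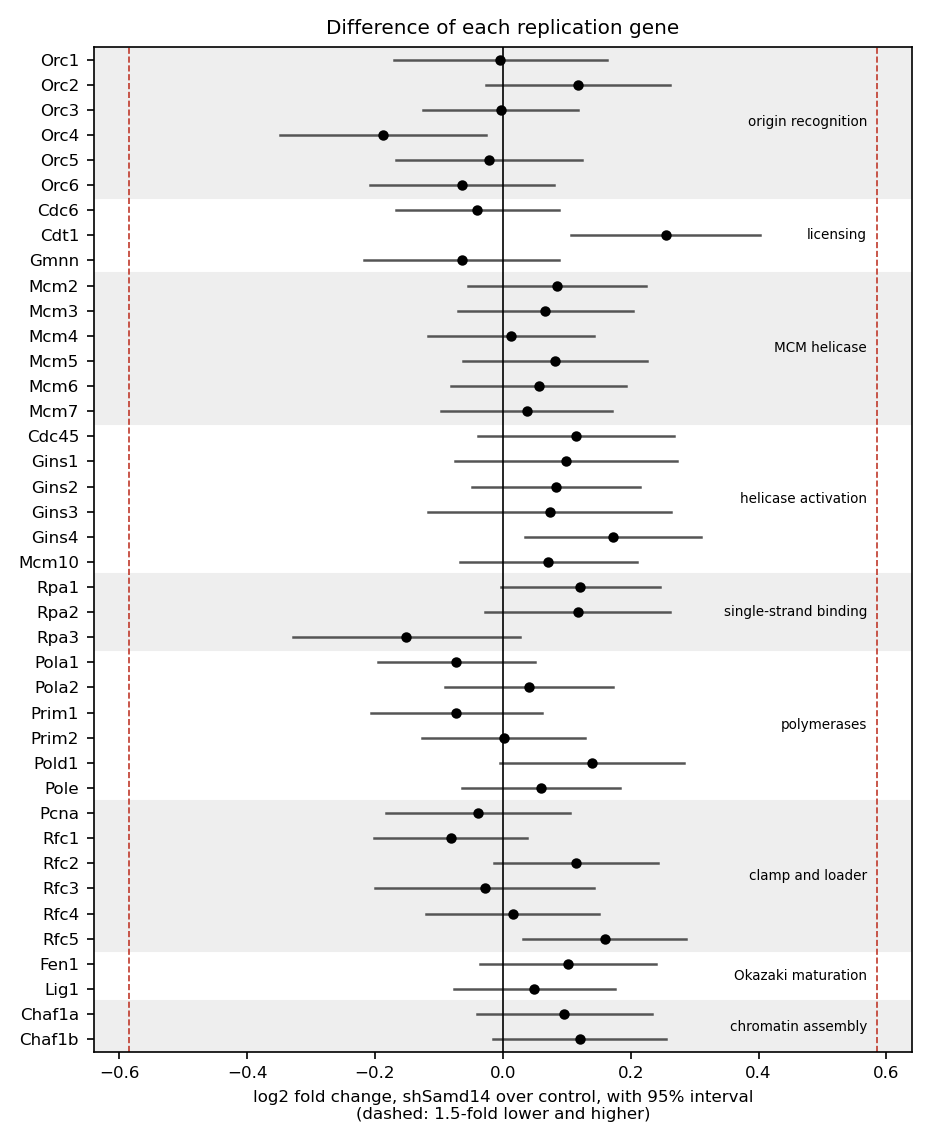
Log2 fold change of CPM (x axis), shSamd14 over control, with its 95% interval from edgeR's quasi-likelihood fit for each of the 40 replication genes, 3 libraries a group. Every interval lies between the dashed lines at 1.5-fold lower and higher, and those of Cdt1, Gins4, Rfc5 and Orc4 do not reach 0.

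More of the differences were positive than negative, and all were small. Of the 40 log2 fold changes 27 were positive (67.5%), against 51.6% over all tested genes, with a median of 0.058 against 0.006 over all tested genes and a range of -0.19 to 0.25. The median deviation of the 40 genes from their mean log2 CPM over the 6 libraries was 0.049, 0.029 and -0.019 in shSamd14 libraries and -0.079, 0.038 and -0.028 in control libraries. These medians overlap between the groups. The median log2 fold change was 0.037 without shSamd14 replicate 1, 0.026 without control replicate 1 and 0.034 without control replicate 3. On the CPM scale the groups did not overlap for 7 of the 40: Cdt1, Gins4, Rpa1, Pole, Rfc5 and Chaf1b were higher in every shSamd14 library (15%, against 10.5% of all tested genes) and Rfc1 was lower in every one (2.5%, against 10.2%). On the TPM scale 11 of the 40 were higher in every shSamd14 library, against 1461 of all 12670 tested genes (11.5%). These were Rpa1, Cdt1, Chaf1b, Rfc2, Fen1, Pola2, Rpa2, Rfc5, Gins4, Gins2 and Pold1. Lower in every one was 1 of the 40, Rfc1, against 925 of all 12670 tested genes (7.3%). The scales do not order the libraries alike, since control replicate 1 had the lowest CPM of the 6 libraries for 22 of the 40 genes, whereas control replicate 3 had the lowest TPM for 20.

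**Figure D3:**
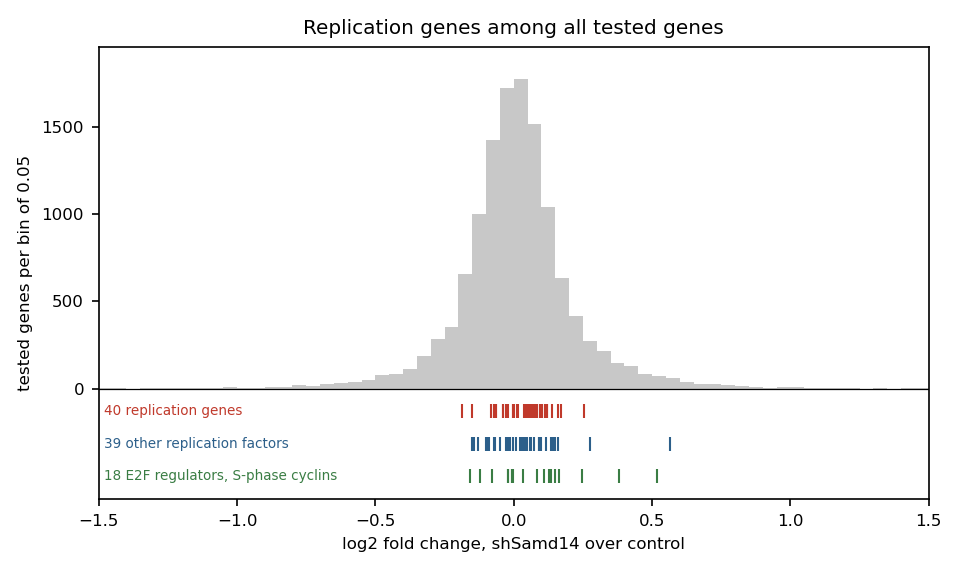
Histogram of the log2 fold change of CPM, shSamd14 over control, for all 12670 tested genes (11 beyond ±1.5 are left out), with ticks below it for the 40 replication genes, 39 other replication factors and 18 E2F regulators and S-phase cyclins. The ticks of the 40 replication genes all fall between -0.19 and 0.25.

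The origin recognition complex, the ATPase that marks origins, had a summed level of 459, 490 and 450 TPM in shSamd14 libraries and 473, 463 and 455 TPM in control libraries. Its 6 subunits did not share a direction, with a median log2 fold change of -0.01. Orc4 had the lowest fold change of all 40 genes, at 54.7, 62.0 and 52.5 CPM in shSamd14 libraries and 66.5, 59.7 and 66.3 CPM in control libraries. The groups overlap, because shSamd14 replicate 2 lay above control replicate 2, and the log2 fold change was -0.19 (SE 0.08, edgeR adjusted p = 0.246). Orc2 was the one subunit with a positive log2 fold change, 0.12, and those of Orc1, Orc3, Orc5 and Orc6 ran from -0.06 to -0.004. Of these, Orc1 was positive in 5, Orc3 in 6 and Orc5 in 2 of the 17 alternative settings, the limma fits on TPM among them for Orc1 and Orc3. Orc1, an E2F-word gene, had 43.4, 43.8 and 38.6 CPM in shSamd14 libraries and 41.1, 45.7 and 39.3 CPM in control libraries, which overlap.

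Among the licensing factors Cdt1, which brings the MCM ring to origins and is degraded once S phase begins, had the largest difference of all 40. It stood at 111, 99.7 and 96.4 CPM in shSamd14 libraries and at 81.4, 90.9 and 85.0 CPM in control libraries, with means of 102 ± 7.72 and 85.8 ± 4.77 CPM (SD, n = 3 each). All 3 shSamd14 libraries lay above all 3 control libraries. The log2 fold change was 0.25 (SE 0.07, 95% interval 0.11 to 0.40), a fold of 1.19, with an adjusted p of 0.0699 by edgeR's quasi-likelihood test. Across all alternative settings its adjusted p ran from 0.021 to 0.321, and in no fit that left out 1 library was it below 0.05. Gene Cdt1 lies at chr8:122568015-122573554 on the plus strand of GRCm38, and its E2F word begins 32 bases after the RefSeq start.

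The other licensing genes pointed the other way and overlapped. Gmnn encodes geminin, which binds CDT1 and stops it from loading MCM. It had 89.0, 88.8 and 78.0 CPM in shSamd14 libraries and 87.5, 95.9 and 84.1 CPM in control libraries, a log2 fold change of -0.06 (SE 0.07, edgeR adjusted p = 0.732). Cdc6, the ATPase that works with CDT1 in loading, had 113, 109 and 106 CPM in shSamd14 libraries and 110, 118 and 109 CPM in control libraries, a log2 fold change of -0.04 (SE 0.06, edgeR adjusted p = 0.808). For both genes the libraries of one group lie within or across those of the other.

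The MCM helicase was the most abundant role group. Its 6 subunits summed to 1446, 1442 and 1475 TPM in shSamd14 libraries and to 1385, 1443 and 1369 TPM in control libraries, with means of 1455 ± 18.1 and 1399 ± 39.1 TPM (SD, n = 3 each) and a ratio of 1.04. Mcm2, a subunit that also binds histones, had 398, 367 and 374 CPM in shSamd14 libraries and 343, 380 and 350 CPM in control libraries. These overlap, as control replicate 2 lay above 2 of the shSamd14 libraries (log2 fold change 0.08, SE 0.07, edgeR adjusted p = 0.598). All 6 log2 fold changes were positive and small, from 0.01 for Mcm4 to 0.08 for Mcm2. The direction is not firm for every subunit: Mcm7 was negative with effective-length offsets, in the limma fits on TPM and without control replicate 1, and Mcm4 was negative without shSamd14 replicate 1 and without control replicate 1.

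The helicase activation genes, Cdc45, the GINS subunits and Mcm10, which helps the helicase to start and the primase to bind, were the role group with the largest ratio. Their levels summed to 289, 293 and 295 TPM in shSamd14 libraries and to 263, 276 and 263 TPM in control libraries, with means of 292 ± 3 and 268 ± 7.53 TPM (SD, n = 3 each). The groups do not overlap and the ratio was 1.09. All 6 log2 fold changes were positive, from 0.07 for Mcm10 to 0.17 for Gins4, and remained positive under each of the 17 alternative settings. These settings reuse the same 6 libraries, so the shared sign is no independent support. In CPM the groups overlapped for 5 of the 6 genes, and 0 of the 6 were called, against 2.58% of all tested genes. How often summed levels of other genes separate the groups was not computed. Gins4 had 57.7, 56.8 and 52.8 CPM in shSamd14 libraries and 50.1, 48.4 and 49.8 CPM in control libraries, which do not overlap. Its log2 fold change was 0.17 (SE 0.06, edgeR adjusted p = 0.205), and no fit without 1 library brought that p below 0.177.

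**Figure D4:**
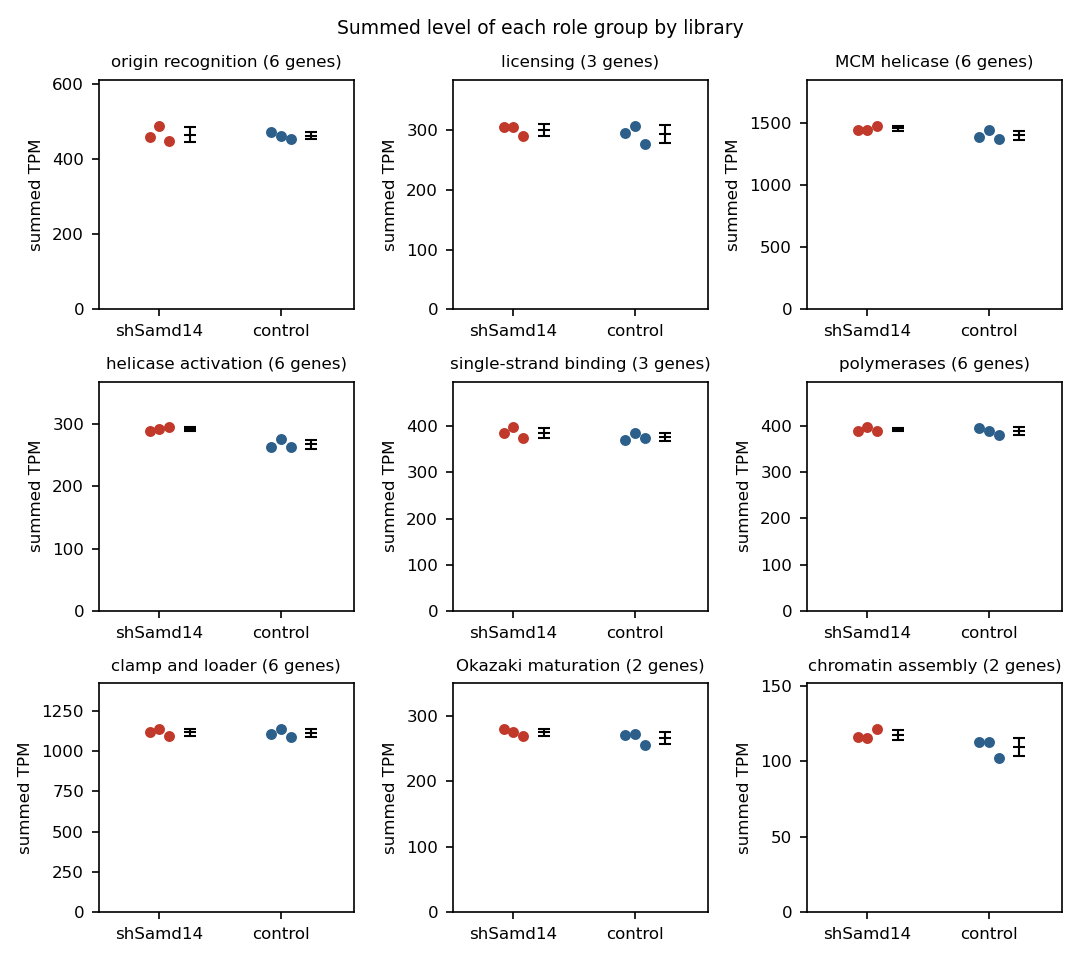
Summed TPM of each of the 9 role groups, with 1 point per library for shSamd14 (left, red) and control (right, blue), and bars for the mean ± SD of 3 libraries. The points of both groups separate for helicase activation (289 to 295 against 263 to 276 TPM) and for chromatin assembly (115 to 122 against 102 to 113 TPM).

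The subunits of RPA, the heterotrimer that protects single-stranded DNA, did not share a direction. Rpa1, the large subunit, had 281, 286 and 279 CPM in shSamd14 libraries and 248, 267 and 262 CPM in control libraries, which do not overlap (log2 fold change 0.12, SE 0.06, edgeR adjusted p = 0.348). Rpa3, the smallest subunit, had 49.99, 51.5 and 41.4 CPM in shSamd14 libraries and 50.4, 56.1 and 52.1 CPM in control libraries, which overlap (log2 fold change -0.15, SE 0.08, edgeR adjusted p = 0.428). Rpa2, the middle subunit, had a log2 fold change of 0.12. The difference between the subunits was not tested.

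The polymerase genes summed to 389, 396 and 389 TPM in shSamd14 libraries and to 395, 389 and 380 TPM in control libraries, a ratio of 1.01. Pold1, the catalytic subunit of the lagging-strand polymerase delta, had the largest difference of the 6, at 107, 94.8 and 104 CPM in shSamd14 libraries and 85.7, 95.2 and 96.1 CPM in control libraries. Control replicates 2 and 3 lay above shSamd14 replicate 2, and the test did not pass (log2 fold change 0.14, SE 0.07, edgeR adjusted p = 0.352). The 4 subunits of polymerase alpha-primase, which make the primers, had a summed TPM ratio of 0.99. Their log2 fold changes ran from -0.07 for Pola1 and Prim1 to 0.04 for Pola2, and that of Pole was 0.06. Pola2 turned negative without shSamd14 replicate 1.

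Pcna, the clamp that tethers the polymerases, had 601, 602 and 545 CPM in shSamd14 libraries and 577, 626 and 593 CPM in control libraries. These overlap, with the lowest and the highest value in shSamd14 replicate 3 and control replicate 2, and the log2 fold change was -0.04 (SE 0.07, 95% interval -0.18 to 0.11, edgeR adjusted p = 0.837). A pseudogene of Pcna is listed in the tables, so reads of Pcna may have been shared with it. Of the 5 subunits of replication factor C, which opens the clamp and loads it, Rfc5 stood out with 104, 99.8 and 95.4 CPM in shSamd14 libraries and 88.6, 91.7 and 87.8 CPM in control libraries. Its groups do not overlap, at a log2 fold change of 0.16 (SE 0.06, edgeR adjusted p = 0.207). Rfc1, the large subunit, lay below control in every shSamd14 library, with 148, 155 and 151 CPM in shSamd14 libraries and 157, 160 and 162 CPM in control libraries, and the log2 fold changes of the other three subunits ran from -0.03 to 0.11.

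Fen1, the nuclease that trims Okazaki flaps, had 185, 167 and 167 CPM in shSamd14 libraries and 152, 169 and 162 CPM in control libraries, which overlap (log2 fold change 0.10, SE 0.06, edgeR adjusted p = 0.509). Lig1, which seals the nicks, had a log2 fold change of 0.05 that turned negative with effective-length offsets and in the limma fits on TPM. The CAF-1 subunits Chaf1a and Chaf1b, which deposit histones H3 and H4 on new DNA, summed to 116, 115 and 122 TPM in shSamd14 libraries and to 113, 113 and 102 TPM in control libraries, which do not overlap (ratio 1.08). Chaf1b had 61.3, 59.2 and 57.2 CPM in shSamd14 libraries and 52.8, 56.5 and 54.2 CPM in control libraries, which do not overlap either. Its log2 fold change of 0.12 did not pass the test (SE 0.06, edgeR adjusted p = 0.405).

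Added over all 40 genes, the levels were 4788, 4847 and 4758 TPM in shSamd14 libraries and 4668, 4786 and 4563 TPM in control libraries. The groups overlap by 1 library, control replicate 2 lying above shSamd14 replicate 3, and the ratio of the means was 1.03 (4798 ± 45.3 and 4672 ± 111 TPM, SD, n = 3 each). The machinery thus took 0.476% to 0.485% of all TPM in shSamd14 libraries and 0.456% to 0.479% in control libraries. Split by the E2F words, the 13 genes with a word had a median log2 fold change of 0.049 (range -0.07 to 0.25), and the 19 genes whose promoter held none had a median of 0.071 (range -0.19 to 0.16). Of the 40 genes, 12 share exon bases with a gene on the opposite strand that the tables also list: Cdc45, Chaf1a, Fen1, Gins2, Lig1, Mcm7, Orc2, Orc4, Orc6, Rfc2, Rfc4 and Rfc5. Values of these 12 are less certain, because no source used here says whether strand entered the counting.

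Genes around the fork and upstream of it gave a few calls. Of 40 further replication factors 39 had an ID under their symbol (Supt16h was not analysed here). Of the 39, 2 rose while 0 fell, against 1.32% called higher and 1.26% called lower over all tested genes. Their log2 fold changes were positive for 26 (66.7%, against 51.6% of all tested genes), with a median of 0.040. Asf1a, a histone H3 and H4 chaperone that hands histones to CAF-1, had 71.7, 75.0 and 57.8 CPM in shSamd14 libraries and 44.9, 46.5 and 46.8 CPM in control libraries. Every shSamd14 library lay above every control library, with means of 68.2 ± 9.11 and 46.1 ± 1.01 CPM (SD, n = 3 each) and a fold of 1.48 (log2 fold change 0.56, SE 0.09, edgeR adjusted p = 0.00397). The call held in all 6 fits that left out 1 library. Its exons overlap those of Mcm9, a helicase paralogue on the opposite strand, by 1748 bases, and Mcm9 itself was at 3.82 to 4.67 TPM in shSamd14 libraries and 3.68 to 4.62 TPM in control libraries.

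Clspn encodes claspin, which links the fork to the checkpoint kinase CHK1. It had 110, 107 and 108 CPM in shSamd14 libraries and 90.6, 93.7 and 83.8 CPM in control libraries, and the groups do not overlap. The fold was 1.21 (log2 fold change 0.28, SE 0.06, edgeR adjusted p = 0.0239). The call was lost in 5 of the 6 fits without 1 library, with adjusted p-values of 0.054 to 0.102, and it passed without control replicate 2 at 0.0355. It was also lost with effective-length offsets, at 0.067, and in the 3 limma fits on TPM, at 0.154 to 0.318. The promoter of Clspn holds an E2F word.

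Of 18 E2F regulators and S-phase cyclins, 2 rose and 0 fell, against 1.32% called higher and 1.26% called lower over all tested genes. In CPM, 7 of the 18 were higher in every shSamd14 library (38.9%, against 10.5% of all tested genes). The list did not share a direction, with 10 positive log2 fold changes (55.6%, against 51.6% of all tested genes), 8 negative ones and a median of 0.060. Rbl2 encodes p130, a pocket protein that holds E2F targets off in resting cells. It had 79.2, 86.3 and 91.9 CPM in shSamd14 libraries and 60.1, 58.3 and 61.2 CPM in control libraries, a fold of 1.43 (log2 fold change 0.52, SE 0.07, edgeR adjusted p = 0.000827). E2f2, an activating E2F with a known part in erythroid maturation, had 85.9, 80.8 and 91.2 CPM in shSamd14 libraries and 68.6, 63.1 and 66.3 CPM in control libraries, a fold of 1.30 (log2 fold change 0.38, SE 0.07, edgeR adjusted p = 0.00683). Neither gene's groups overlap, and both calls held in all 6 fits without 1 library. Exons of Rbl2 overlap those of a gene on the opposite strand, so its value is less certain. Asf1a, Rbl2 and E2f2, like Clspn, missed the threshold in a limma fit on log2(TPM + 1) without a filter on low values, which called 21 genes in all.

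**Figure D5:**
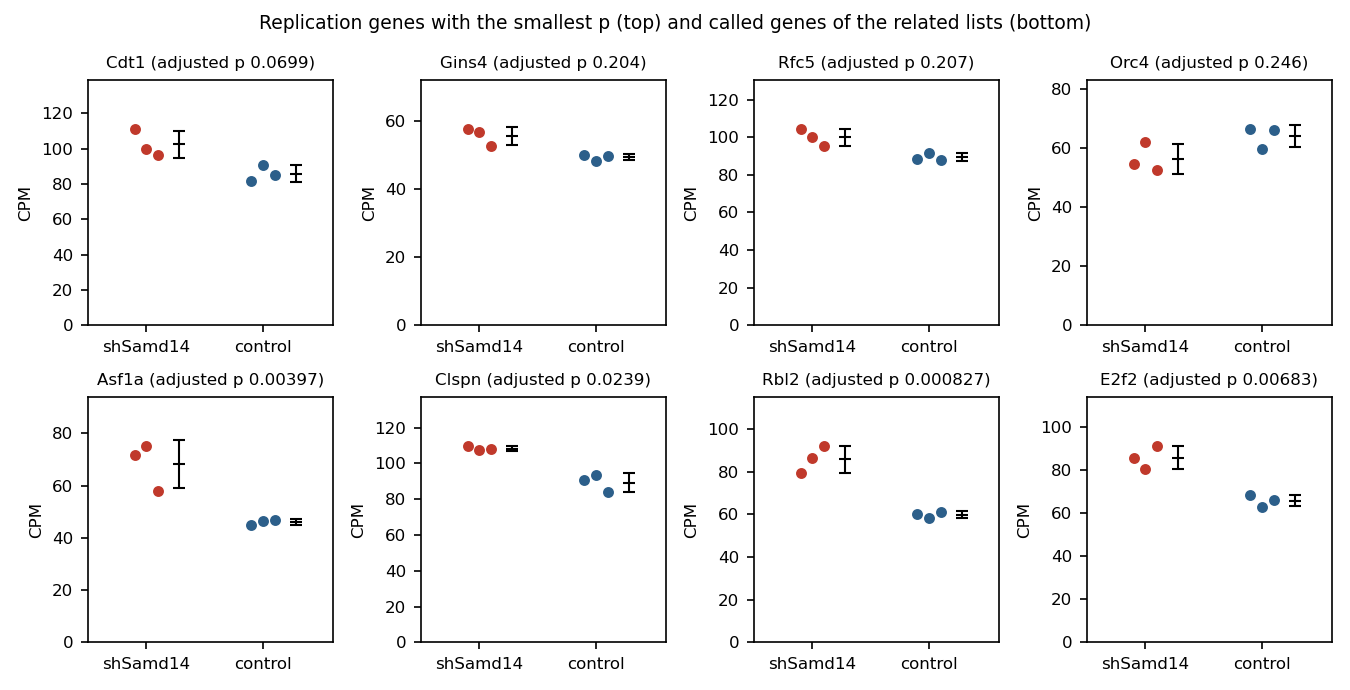
CPM by library for the 4 replication genes with the smallest p (top row) and the 4 called genes of the related lists (bottom row), shSamd14 left and control right, 3 libraries each, with bars for the mean ± SD and axes starting at 0. The groups separate in 7 panels and overlap for Orc4, and the steps are larger for Asf1a (1.48-fold) and Rbl2 (1.43-fold) than for Cdt1 (1.19-fold).

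Of 20 mitotic genes, 0 passed edgeR's quasi-likelihood test, against 2.58% of all tested genes. At an unadjusted p under 0.05 there was 1 (5%, against 15% of all tested genes), and DESeq2 and limma-voom called 0. The values split evenly, with 10 positive log2 fold changes, a median of -0.01 and a range of -0.14 to 0.12. Bub1, a spindle checkpoint kinase, had the smallest p, at 154, 163 and 141 CPM in shSamd14 libraries and 179, 168 and 160 CPM in control libraries (log2 fold change -0.14, SE 0.07, edgeR adjusted p = 0.333). An E2F word was found in 6.25% of the 16 promoters that the table held for this list.

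An earlier look at these data had found 7-letter words in the 3′ untranslated regions of called genes, CTGATTA and TGATTAA where genes were higher and CAAGTGT and AAGTGTA where they were lower. In the replication genes the first pair occurred in 2 of 39 genes with a 3′ untranslated region in the annotation (5.13%), namely Orc2 and Mcm6. It occurred in 13.8% of tested genes that were not called and in 59.3% of those called higher. The second pair occurred in 8 of the 39 (20.5%), against 21.2% of genes not called and 57.3% of genes called lower. The longest annotated 3′ untranslated region had a median of 526 bases in the replication genes and 1187.5 bases in genes not called, so the letters searched per gene differed. The called genes Asf1a, Rbl2 and Clspn hold the first pair as 1 overlapping site each, shown with its first word in capitals. Asf1a, although called higher, also holds AAGTGTA, a word of the second pair.
Asf1a: tgaaactaatCTGATTAaagcatatat
Rbl2: aatccagcaaCTGATTAaaggagggga
Clspn: gtcttgatctCTGATTAaccttcatcg
These letters were read from the GRCm38 transcripts of GENCODE. E2f2 and Cdt1 hold neither pair. The words were found in called genes of these same data. Their shares among called genes, and their presence in Asf1a, Rbl2 and Clspn, are therefore no independent support. The part of these words in the differences was not tested.

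Markers of other cell types moved with the groups in some lists, and their part in the results was not tested. The 6 markers of maturing erythroid cells summed to 1930 to 2380 TPM in shSamd14 libraries and 1130 to 1760 TPM in control libraries, mostly from Hbb-bt. Of the 6, 0 were called, against 2.58% of all tested genes. The 4 megakaryocyte markers summed to 294 to 327 TPM in shSamd14 libraries and 233 to 239 TPM in control libraries, with Pf4 called. The sums of progenitor markers (495 to 537 and 483 to 578 TPM), neutrophil markers (4300 to 6530 and 3790 to 6230 TPM), mast cell markers (48.7 to 60 and 47.9 to 55.8 TPM) and macrophage markers (10.5 to 16.4 and 9.2 to 16.4 TPM) overlapped between shSamd14 and control libraries, given in this order. Single progenitor markers did not share a direction. In CPM, Kit was lower in every shSamd14 library (log2 fold change -0.33, edgeR adjusted p = 0.0943). Gata2 and Cd48 were higher in every one (log2 fold changes 0.25 and 0.29, edgeR adjusted p = 0.106 and 0.0672). Ptprc, Myb and Cd34 overlapped. The sums of hepatocyte markers overlapped as well (33.1 to 45.7 and 39.5 to 81.1 TPM). They came mostly from Apoa1, at 32.6 to 43.2 TPM in shSamd14 and 39.2 to 80.2 TPM in control libraries. Ttr was at 0 in all but 1 library. Alb had 1.38 TPM in shSamd14 replicate 1 and 0 to 0.12 TPM in the others, and Afp was highest in that library too, at 1.06 TPM. Endothelial markers stayed between 5.77 and 9.18 TPM, mostly from Pecam1, with Cdh5 and Stab2 near 0.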

How the data were processed

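The authors deposited 1 gene table per library with an expected count (reads that map to several genes are shared between them), TPM and a gene length, per the file headers. The TPM values deposited by the authors are scaled to 1000000 transcripts and were used for levels. Per the submitters' processing notes, mm10 was the build, and RSEM 1.2.15, Bowtie 1.0.1 and CASAVA 1.8.2 were used in roles not stated. Annotation, strand setting and read length: not given in the sources used here.

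Of 24376 IDs, 23580 had a symbol in GENCODE M21 (GRCm38). Expected counts were rounded, genes were filtered with filterByExpr (12670 kept) and fitted with edgeR 4.0.16 in R 4.3.3 (TMM factors 0.986 to 1.021, robust quasi-likelihood test, two-sided, Benjamini-Hochberg over all tested genes, threshold 0.05). The biological coefficient of variation was 7.52%. CPM are TMM-scaled. Libraries of a group differed by more than counting noise (chi-square per gene 5.73 to 12.2), so each was counted as 1 sample. They may still share a culture or pool. Intervals cover the spread between libraries, and the floor of 3 counts covers counting error only. Alternatives were other size factors, filters, effective-length offsets, DESeq2 1.42.0, limma 3.58.1 on counts and on TPM, a replicate block, a stricter threshold and leaving out each library. The pipeline was run on simulated data. The outcome is not reported here, so how often small differences would be called is not given.

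The 40 genes and all lists were chosen with earlier results of these data known. Fold changes are given with tests for members with an adjusted p under 0.05, the member with the smallest p and the one with the largest fold change in each role group, and Pcna, Cdt1, Gmnn, Cdc6 and Mcm2, and likewise for called genes of the other lists. Other members are given by range and by their values. FPKM was not used here.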

Additional observations from a re-analysis of the deposited data

How the results depend on the processing

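The number of replication genes called was 0 with edgeR's quasi-likelihood test and 1, Cdt1, with no filter on low counts, with DESeq2 and with the replicate block. Over all genes these settings called 2.74%, 3.78% and 5.38%, in this order. The number of replication genes called was 0 in all other settings, including each fit without 1 library (0 to 0). The number of genes called over all tested was 327, against 168 and 170 with limma on log2(TPM + 1) and log2(TPM + 0.1), 21 with limma on log2(TPM + 1) and no filter, 682 with the replicate block, and 104 at an adjusted p under 0.01. It ran from 128 (without shSamd14 replicate 2) to 283 without 1 library, and was 153 without control replicate 1. Whether the samples are paired cannot be told from the replicate numbers. The correlation of deviations of same-numbered libraries was -0.187, 0.234 and 0.446. ShSamd14 replicates 2 and 3 correlated best with the control of their own number. ShSamd14 replicate 1 correlated best with control replicate 2 (0.335), and control replicate 1 with shSamd14 replicate 2 (0.216). Cdt1 had an adjusted p of 0.0325 under the block. The log2 fold change of Pcna ran from -0.0706 (without shSamd14 replicate 1) to 0.00297 (without shSamd14 replicate 3). The cause was not tested for any of these. The median log2 fold change of the 40 genes was positive in every setting and ran from 0.026 to 0.086 without 1 library. The counts of the replication genes were far above the floor, and the spread between 3 libraries a group set a median standard error of 0.064 on the log2 scale.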

Other observations

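The ratio of Cdt1 to Gmnn, the licensing factor and its inhibitor, was chosen after its values were seen. In TPM it was 0.526, 0.472 and 0.517 in shSamd14 libraries and 0.392, 0.398 and 0.425 in control libraries, which do not overlap. The TPM of Cdt1 alone does not overlap either, so the ratio is no independent support. Ccne1, which encodes cyclin E1 and was also chosen after its values were seen, had 85.5, 83.2 and 78.5 CPM in shSamd14 libraries and 66.1, 71.6 and 70.4 CPM in control libraries. These do not overlap, and its log2 fold change of 0.25 had an edgeR adjusted p of 0.0538 (SE 0.06).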
